A study of Rattus norvegicus with 138 samples.

Results

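The comparison described here is that of spontaneously hypertensive rats (SHRs) with Wistar-Kyoto (WKY) rats in 1 brainstem nucleus, the nucleus of the solitary tract (NTS), at 24 wk of age. It takes every NTS library whose labels give this age, 6 from SHRs and 3 from WKY rats, which is 9 of the 138 libraries of the series and 9 of its 46 NTS libraries. All genes counted in these libraries were considered. The study took female rats of both strains at 5 ages from 8 to 24 wk and sampled the NTS, the caudal ventrolateral medulla (CVLM) and the rostral ventrolateral medulla (RVLM), and the age of 24 wk stands for extended chronic hypertension. The SHRs were of the SHR/NHsd stock and the controls of the WKY/NHsd stock, supplied by Envigo, and no drug treatment or transgene is named for either. Each NTS library was made from bilateral tissue punches of 1 rat, so that every replicate is a separate animal, and a punch holds whatever cell types lie in it. Effects of strain and of blood pressure cannot be told apart in this design, and males were not studied.

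The NTS receives the first central synapse of the baroreceptor, chemoreceptor and visceral afferents that run in the vagus and glossopharyngeal nerves. Its neurons use glutamate, GABA and many neuropeptides, a catecholaminergic group lies within it, and it projects to the CVLM and RVLM to set sympathetic outflow. Below it lies the dorsal motor nucleus of the vagus, whose cholinergic neurons supply parasympathetic output to the viscera.

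Expected counts assigned to genes ran from 6799609 (WKY replicate 2) to 14659219 (SHR replicate 6) per library. Levels are given as CPM, counts scaled to a common library size, after TMM normalization, which can be compared between libraries for 1 gene but not between genes, and fold changes are fitted log2 values of SHRs minus WKY rats with their standard errors (SE). In a principal component analysis of the 9 libraries, the first component held 39.4% of the variance and did not separate the strains. WKY replicates 1 and 3 stood apart at scores of 47.7 and 41.6, while WKY replicate 2 lay at -8.92, within the range of the SHRs from -37.5 to 13.6. SHR replicate 6, the only library of the 9 whose name ends in 2, stood apart on the second component. The main counts and some single genes are therefore given with and without WKY replicate 2. Not every gene whose call was lost without this rat is marked. Same-numbered rats of the strains tended to deviate together, but some rats of other numbers did so nearly as much, so the pairing is uncertain. The value with the replicate number as a block is given where it ends a call. A block value rests on the 3 WKY rats and the 3 SHRs that share their numbers. The other SHRs have no partner and hold no information on the strain difference in that fit.

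The labelled tissue was checked against markers. All 12 genes of the list for NTS and dorsal vagal neurons that were present in the table had counts at 24 wk, and 9 passed the filter on low counts. Their summed level was 399, 434 and 445 CPM in WKY rats and ran from 289 to 484 CPM in SHRs with a median of 397. Th, which encodes the rate-limiting enzyme of catecholamine synthesis, had 158, 145 and 177 CPM in WKY replicates 1 to 3 and 102 to 193 CPM (median 132) in SHRs (log2 fold change -0.17, SE 0.18, adjusted p = 0.767). Markers of other cells were also present in the punches. Summed motor neuron markers had 1168, 720 and 1012 CPM in WKY rats and 359 to 889 CPM in SHRs. Summed cerebellar markers had 109 to 126 CPM and 112 to 133 CPM, and summed oligodendrocyte markers had 35995, 21311 and 27526 CPM against 22858 to 41272 CPM in SHRs. In bulk tissue, fewer cells of a type and less RNA per cell cannot be told apart.

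Of 13793 genes tested, 136 had an adjusted p no higher than 0.01 together with a log2 fold change of 1 or more in size, which is a call here, 71 of them higher in SHRs (0.515% of the genes tested) and 65 lower (0.471%). At an adjusted p under 0.05 without a limit on size, 158 genes were higher (1.15%) and 181 lower (1.31%). The median log2 fold change of all genes was 0.01. A call was mostly also a complete separation of the rats: in 134 of the 136 called genes the ranges of the strains did not overlap, against 6.33% of all genes tested. The exceptions were Cyth4 and Enpp5, named here after their values were seen. Of the called genes, 51 differed by a log2 fold change over 2 in size, 29 higher and 22 lower. A placeholder name in place of an assigned symbol was carried by 26 of them. Without WKY replicate 2 the count rose to 259, of which 199 were higher and 60 lower, and 112 of the original calls were kept. With the replicate number as a block, which compares only 3 rats of each strain, 98 genes were called, 53 higher and 45 lower. Of the original calls 91 were kept.

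**Figure D1:**
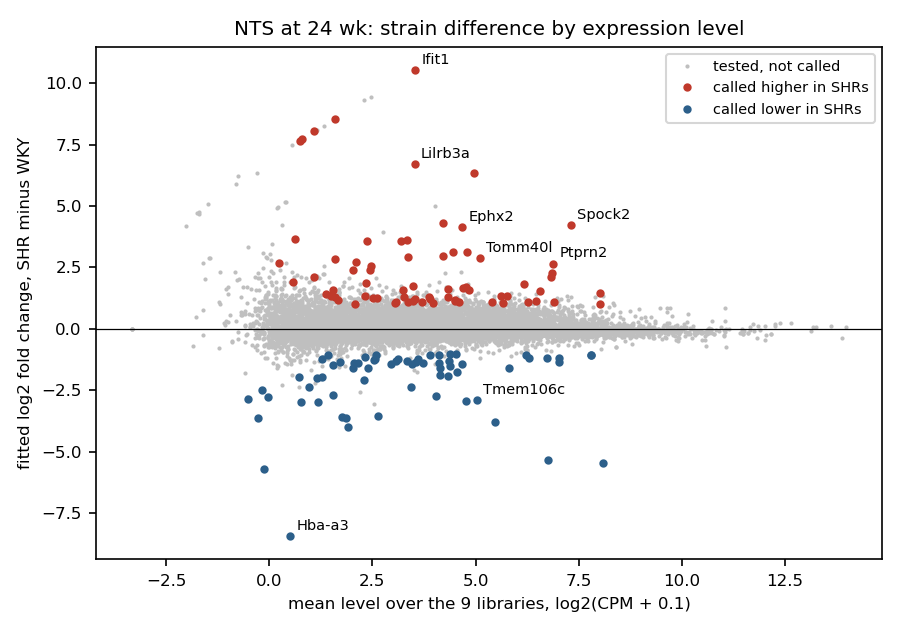
Each point is a gene tested in the NTS at 24 wk, with its mean level over the 9 libraries as log2(CPM + 0.1) on the horizontal axis and its fitted log2 fold change, SHR minus WKY, on the vertical axis. The 71 genes called higher are red, the 65 called lower are blue and the others grey, and the highest and lowest points, Ifit1 and Hba-a3, are genes without a count in all libraries of 1 strain.

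Genes were ranked among called genes without overlap and with a mean of at least 50 normalized counts. Ifit1, Lilrb3a, Slc11a1 and Cd4, genes known from immune responses, were among the 12 symbols with the highest fold changes in this ranking. Ifit1, an interferon-induced protein that binds viral RNA, had 0 counts in each of the 3 WKY libraries and 7.96 to 28.7 CPM in SHRs with a median of 16.6. The ranges did not overlap, and the level in SHRs was at least 154-fold higher when 3 counts over the summed WKY libraries are taken as the floor (adjusted p = 3.34e-09). Lilrb3a, an inhibitory immunoglobulin-like receptor of leukocytes, had 0, 0.14 and 0.317 CPM in WKY rats and 14.0 to 20.5 CPM (median 16.6) in SHRs (log2 fold change 6.71, SE 0.56, adjusted p = 4.51e-12). Only 4 counts over the 3 WKY libraries underlie this fold change. Slc11a1, the phagosomal metal transporter of macrophages, had 1.10, 2.66 and 1.90 CPM in WKY rats and 8.67 to 18.4 CPM (median 15.8) in SHRs, without overlap (log2 fold change 2.94, SE 0.32, adjusted p = 7.64e-09). Cd4, the coreceptor for MHC class II, had 1.80, 0.56 and 1.27 CPM against 4.05 to 12.2 CPM (log2 fold change 2.58, SE 0.42, adjusted p = 3.86e-05). The broader list of microglial markers did not follow these genes. Of its 19 tested members 0 passed in edgeR at an adjusted p under 0.05 and in DESeq2, with 1 at an unadjusted p under 0.05. The median log2 fold change was 0.05, and the summed level was 692 to 846 CPM in WKY rats and 742 to 949 CPM in SHRs.

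Ephx2 encodes the soluble epoxide hydrolase, which breaks down vasoactive epoxides of arachidonic acid. Its level was 2.10, 3.5 and 0.95 CPM in WKY rats and lay between 35.7 and 39.6 CPM (median 37.0) in all 6 SHRs (log2 fold change 4.13, SE 0.30, adjusted p = 5.06e-14). Pxmp4, a peroxisomal membrane protein, had 2.7, 4.06 and 4.01 CPM in WKY rats and 26.4 to 35.7 CPM (median 30.4) in SHRs (log2 fold change 3.12, SE 0.22, adjusted p = 2.85e-14). Apoa5, an apolipoprotein of triglyceride-rich particles, had 0.2, 0.84 and 0.845 CPM in WKY rats and 4.85 to 10.9 CPM in SHRs (log2 fold change 3.56, SE 0.45, adjusted p = 2.31e-07). None of these ranges overlapped.

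Spock2, which encodes the extracellular matrix proteoglycan testican-2, had 13.0, 11.3 and 12.9 CPM in WKY rats and 189 to 272 CPM (median 238) in SHRs (log2 fold change 4.23, SE 0.19, adjusted p = 1.23e-20). Ptprn2, a membrane protein of dense-core vesicles, had 25.8, 35.9 and 16.7 CPM against 113 to 201 CPM (median 174) in SHRs (log2 fold change 2.66, SE 0.36, adjusted p = 1.40e-06). Tomm40l, a relative of the import channel of the mitochondrial outer membrane, had 7.21, 4.90 and 7.29 CPM against 45.6 to 51.6 CPM (median 48.3) in SHRs (log2 fold change 2.90, SE 0.17, adjusted p = 3.55e-16). Tmem94 and Pbld1 completed the 12 symbols with the highest fold changes, with log2 fold changes of 3.12 and 2.95. Of the genes without an assigned symbol, AABR07064061.1, LOC103690108 and LOC100911830 rose most, by log2 fold changes of 6.33, 4.33 and 3.6.

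In the same ranking, which leaves out called genes with fewer counts, 12 symbols had the strongest decrease. They ranged from membrane and cytoskeletal proteins to a phosphoinositide 3-kinase subunit and an AMPA receptor partner. Tmem106c, a transmembrane protein, had 83.1, 71.3 and 78.4 CPM in WKY rats and 9.0 to 12.0 CPM (median 10.3) in SHRs (log2 fold change -2.91, SE 0.16, adjusted p = 9.89e-18). Pik3r1, the regulatory subunit of phosphoinositide 3-kinase, had 99.3, 100 and 101 CPM in WKY rats and 23.5 to 41.0 CPM (median 33.2) in SHRs (log2 fold change -1.58, SE 0.14, adjusted p = 2.66e-11). The WKY rats were nearly equal for this gene, and the SHRs lay below them without exception. Cacng5, an auxiliary subunit of AMPA-type glutamate receptors, had 28.3, 35.9 and 23.7 CPM against 6.55 to 15.6 CPM (median 10.5) in SHRs (log2 fold change -1.40, SE 0.22, adjusted p = 1.51e-05). Mylk, the kinase that phosphorylates myosin light chain in smooth muscle contraction, had 9.91, 8.12 and 9.82 CPM against 1.83 to 5.08 CPM (log2 fold change -1.60, SE 0.29, adjusted p = 2.17e-04). With the replicate block Mylk had an adjusted p of 0.0519, the highest over the alternatives, which ran down to 1.87e-05. It was the only one of these 24 symbols whose call was lost under the block.

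The cilium gene Cfap206, described with the regions, and Serhl2, Aif1l, Haghl, Prune1, Epb41l1, Arfgap1 and Pus7l made up the remainder of the 12, these 7 with log2 fold changes from -2.36 for Serhl2 to -1.41 for Pus7l. Aif1l binds actin, Epb41l1 ties membrane proteins to the cytoskeleton and Arfgap1 acts in Golgi vesicle traffic. Prune1, a phosphoesterase, had 50.4, 39.9 and 42.7 CPM in WKY rats and 11.1 to 15 CPM (median 13.1) in SHRs (log2 fold change -1.76, SE 0.13, adjusted p = 2.85e-13). The ranges of the strains did not overlap for any of the 7. Of the genes without an assigned symbol, AABR07052523.1, RGD1563294 and LOC100909441 had the lowest log2 fold changes, -5.44, -5.34 and -3.79. Whether mismatches between a strain and the reference genome, or close gene copies, changed the counts of these genes was not tested.

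**Figure D2:**
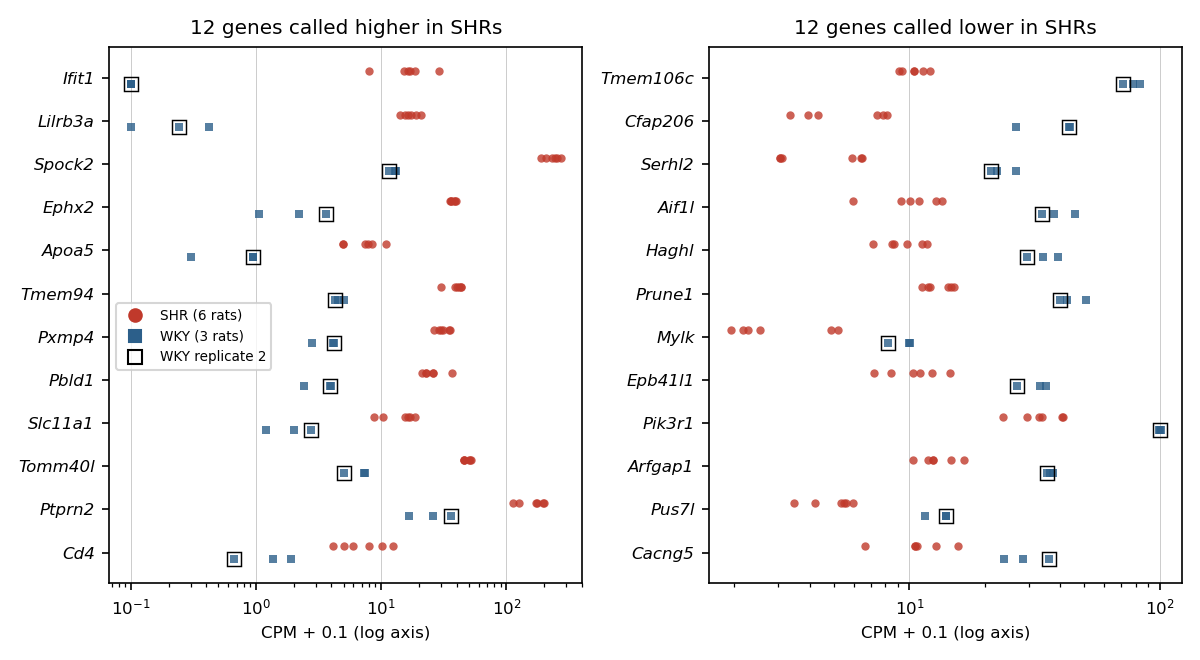
Levels of the 12 genes with the highest (left) and the 12 with the lowest (right) log2 fold change among those called, not overlapping and with a mean of at least 50 normalized counts, as CPM + 0.1 on a log axis. Each red circle is 1 of 6 SHRs and each blue square 1 of 3 WKY rats, with WKY replicate 2 outlined, and in every gene all SHRs lie on 1 side of all WKY rats, WKY replicate 2 included.

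RT1 genes, the MHC genes of the rat, were called in both directions. Of 16 tested members, 3 rose and 3 fell at an adjusted p under 0.05, and the median log2 fold change was 0.03. Over all genes tested, 1.15% were higher and 1.31% lower at this threshold, which is the background for this and the later lists. The strongest was RT1-A1, a classical class I gene that presents peptides to T cells, with 34.9, 29.8 and 33.1 CPM in WKY rats and 133 to 172 CPM (median 160) in SHRs (log2 fold change 2.27, SE 0.14, adjusted p = 3.56e-16). Its neighbour RT1-A2 went the other way, with 11.5, 8.12 and 8.24 CPM in WKY rats and 2.40 to 5.32 CPM (median 3.86) in SHRs (log2 fold change -1.26, SE 0.23, adjusted p = 4.11e-04). Reads of such close copies may be split between them by the counting, so that the levels of single members are uncertain. Summed over all RT1 genes, the level was 200, 179 and 201 CPM in WKY rats and 259 to 336 CPM (median 311) in SHRs, without overlap. RT1-A1 carried this separation: summed over the other 30 RT1 genes, the level was 166, 149 and 168 CPM in WKY rats and 126 to 163 CPM (median 152) in SHRs, with overlap.

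To show how alike the starts of these copies are, the 250 bases before the annotated start of each are printed from RefSeq (GRCr8, both on the plus strand, RT1-A1 at chr20:4906959-4907208 and RT1-A2 at chr20:4872621-4872870). Capitals mark the palindromic NF-kB site of class I promoters and CCAAT on either strand.
RT1-A1: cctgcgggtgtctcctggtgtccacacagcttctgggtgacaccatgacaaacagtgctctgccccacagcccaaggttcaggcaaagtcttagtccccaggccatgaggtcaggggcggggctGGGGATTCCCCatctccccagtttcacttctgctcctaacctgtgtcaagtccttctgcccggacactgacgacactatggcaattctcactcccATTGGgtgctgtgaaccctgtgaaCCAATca
RT1-A2: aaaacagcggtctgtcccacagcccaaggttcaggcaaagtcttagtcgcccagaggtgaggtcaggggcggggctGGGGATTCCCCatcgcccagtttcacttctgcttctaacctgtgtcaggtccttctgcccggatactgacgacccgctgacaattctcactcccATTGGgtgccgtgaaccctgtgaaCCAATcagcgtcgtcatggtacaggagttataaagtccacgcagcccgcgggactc
Aligned to each other with free ends, the windows were identical at 184 of 203 positions (90.6%), and the annotated start lay further downstream in RT1-A2. Both held 1 NF-kB site, which 0.0598% of all 33469 promoter windows of this length hold, and 1 CCAAT on each strand, where 34.0% of windows hold at least 1 CCAAT on either strand. These are matches of letters in the reference strain and say nothing of the sequence in SHRs or WKY rats.

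Other members of the family and their partners followed neither direction as a group. RT1-Db1, a class II beta chain, had 0.601, 0.42 and 0.422 CPM in WKY rats and 0.815 to 2.51 CPM in SHRs (log2 fold change 1.90, SE 0.45, adjusted p = 0.00782). RT1-CE4 also rose, by a log2 fold change of 0.79, and the nonclassical genes RT1-N2 and RT1-N3 fell by 1.98 and 0.92. With the replicate block the adjusted p was 0.104 for RT1-Db1, 0.0389 for RT1-N2, 0.0183 for RT1-A2 and 0.0655 for RT1-N3, where those over all alternatives ran from 0.00277 to 0.104, 5.20e-05 to 0.0389, 3.55e-05 to 0.0502 and 0.00599 to 0.288. Among the 12 tested partners of antigen presentation, 3 rose in edgeR. Psmb8, an immunoproteasome subunit encoded in the same region, had 6.21, 7.84 and 8.03 CPM against 15.9 to 20.2 CPM (log2 fold change 1.3, SE 0.18, adjusted p = 1.54e-06), and Tap2, a subunit of the peptide transporter, had a log2 fold change of 1.18 (SE 0.31, adjusted p = 0.0268). Lilrb3a was the third. The median of the 12 was 0.08, and Tap2 did not pass without WKY replicate 2 (adjusted p = 0.0873, 0.00682 to 0.108 over the alternatives).

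Interferon-induced and complement genes gave single calls and no common direction. Of 32 tested interferon-induced genes, Ifit1 alone rose while Ifi44l and Ddx58 fell, and the median was -0.15. Ifi44l had 0.801, 2.10 and 2.85 CPM in WKY rats and 0 to 0.407 CPM in SHRs (log2 fold change -3.60, SE 0.62, adjusted p = 1.09e-04), and 9 counts in all underlie the level of the SHRs. Ddx58, the RNA sensor RIG-I, fell by 0.65 (SE 0.16, adjusted p = 0.0176), and its adjusted p was 0.300 with the block, against 0.0104 at the lowest over the alternatives. Of 30 tested complement genes, Cfp rose and C1r and C1s fell, with a median of 0.15. Cfp encodes properdin, which stabilizes the alternative pathway convertase, and had 5.0, 4.48 and 4.96 CPM in WKY rats and 7.01 to 17.9 CPM (median 11.5) in SHRs (log2 fold change 1.29, SE 0.29, adjusted p = 0.00412). C1s and C1r, the proteases of the classical pathway, fell by 0.78 and 0.76, and C1r had 23.4, 22.7 and 24.4 CPM in WKY rats and 11.6 to 19.6 CPM in SHRs. With the block C1r had an adjusted p of 0.0930 (2.48e-04 to 0.0930 over the alternatives).

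The genes of acetylcholine synthesis and transport were lower in SHRs in their fitted values, but none passed the test. All 7 tested members had a negative log2 fold change, with a median of -0.60 against 0.01 over all genes. In edgeR 0 of the 7 passed at an adjusted p under 0.05, as in DESeq2, and 2 had an unadjusted p under 0.05. Chat, the enzyme of acetylcholine synthesis, had 131, 89.5 and 102 CPM in WKY rats and 39.4 to 79.1 CPM (median 56.6) in SHRs (log2 fold change -0.86, SE 0.29, adjusted p = 0.115). Its ranges did not overlap, and WKY replicate 2 was the lowest of the controls. Slc18a3, the vesicular acetylcholine transporter whose gene lies within the Chat locus, had 204, 107 and 141 CPM against 63.2 to 99.3 CPM (median 84.0) in SHRs (log2 fold change -0.87, SE 0.34, adjusted p = 0.209). Slc5a7, the high-affinity choline transporter, had 266, 160 and 293 CPM against 82.9 to 253 CPM (median 122), with overlap (log2 fold change -0.66, SE 0.38, adjusted p = 0.469). Without WKY replicate 2 the adjusted p of Chat was 0.0602, the lowest over its alternatives, of which the highest was 0.633.

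Markers of motor neurons, which use acetylcholine, also had lower fitted values without passing the test. Of 13 tested members 11 had a negative log2 fold change, the median was -0.86, and 0 passed in edgeR and in DESeq2, with 5 at an unadjusted p under 0.05. The list shares Chat, Slc18a3, Slc5a7 and Slc10a4 with the list above, so the counts are not independent. Isl1, a LIM homeodomain factor of motor neurons, had 10.3, 4.90 and 9.50 CPM in WKY rats and 1.41 to 7.65 CPM in SHRs (log2 fold change -1.03, SE 0.45, adjusted p = 0.291), and Kcnj14, an inward rectifier of motor neurons, had 57.0, 29.4 and 45.6 CPM against 20.3 to 37.9 CPM (log2 fold change -0.68, SE 0.32, adjusted p = 0.344). How far the share of vagal motor neurons in a punch sets the cholinergic levels was not tested. Ache, which breaks acetylcholine down and is made by many neurons, had 499, 363 and 407 CPM against 340 to 414 CPM (log2 fold change -0.21, SE 0.11, adjusted p = 0.435). Among the 9 tested acetylcholine receptors 0 passed in edgeR and in DESeq2, with 1 at an unadjusted p under 0.05 and a median of 0.25.

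**Figure D3:**
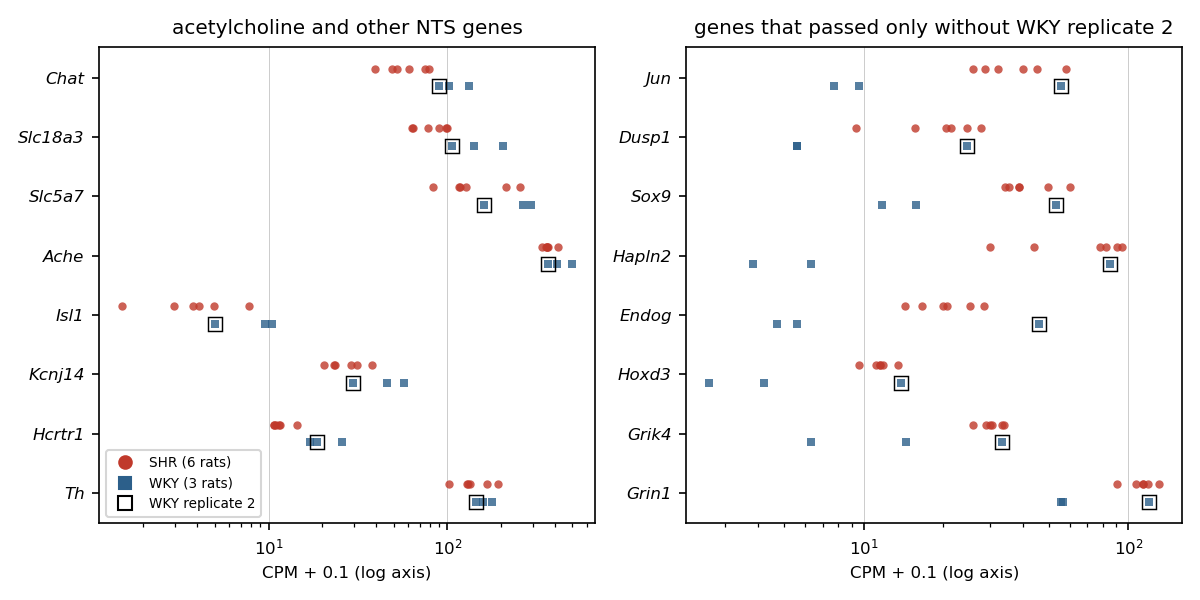
Levels per library as CPM + 0.1 on a log axis, with SHRs as red circles, WKY rats as blue squares and WKY replicate 2 outlined. On the left, Chat and Slc18a3 are lower in all 6 SHRs than in the 3 WKY rats, of which replicate 2 is the lowest. On the right, 8 genes chosen after their values were seen have WKY replicate 2 beside or above the SHRs and the other WKY rats well below.

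Of 40 tested receptors for neuropeptides, Calcrl, Npr1 and Crhr1 rose and Hcrtr1 fell at an adjusted p under 0.05, with a median of -0.01. Calcrl, the receptor through which CGRP and adrenomedullin act, had 19.2, 21.8 and 29.7 CPM in WKY rats and 41.9 to 72.2 CPM (median 48.1) in SHRs (log2 fold change 1.11, SE 0.23, adjusted p = 0.00224), and with the block it had 0.0217 (8.97e-05 to 0.0583 over the alternatives). Crhr1, the receptor for corticotropin-releasing hormone, had 2.20, 2.24 and 2.32 CPM against 3.83 to 7.05 CPM (log2 fold change 1.26, SE 0.32, adjusted p = 0.0194). Npr1, the receptor for atrial natriuretic peptide, had 2.90, 6.30 and 2.32 CPM against 4.77 to 15.7 CPM, with overlap at WKY replicate 2 (log2 fold change 1.44, SE 0.41, adjusted p = 0.0491). With the block, Crhr1 had an adjusted p of 0.0657 and Npr1 of 0.145, where the alternatives ran from 0.00766 to 0.135 and from 0.00871 to 0.341.

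Hcrtr1, the orexin receptor 1, had 25.7, 18.5 and 17.0 CPM in WKY rats and 10.7 to 14.3 CPM (median 11.1) in SHRs, without overlap (log2 fold change -0.82, SE 0.21, adjusted p = 0.0178). Hcrt, the gene of the orexin peptides, had 0.901, 8.54 and 4.86 CPM in WKY rats and 0 to 6.92 CPM in SHRs, a spread that left its difference without a call (log2 fold change -1.07, SE 0.95, adjusted p = 0.703). Tacr3, the neurokinin 3 receptor, had 33.6, 61.2 and 31.3 CPM against 11.7 to 46.3 CPM (log2 fold change -0.63, SE 0.33, adjusted p = 0.428) and passed only with the block (adjusted p = 0.0238, up to 0.821 over the alternatives). Of the 35 tested neuropeptide genes 0 passed in edgeR and in DESeq2, with 1 at an unadjusted p under 0.05.

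For fast transmission and excitability, few members passed. Among 21 ionotropic glutamate receptor genes and partners, Cacng5 alone passed and fell, and the median was 0.06. Among 32 genes of GABA and glycine transmission, Abat alone fell, the enzyme that degrades GABA, from 239, 240 and 183 CPM in WKY rats to 112 to 175 CPM in SHRs (log2 fold change -0.57, SE 0.12, adjusted p = 0.00346). With the block its adjusted p was 0.155, the highest over the alternatives, whose lowest was 0.00120. Among 53 potassium channel genes, Kcnip3 alone fell, a calcium-binding partner of A-type channels, with 20.6, 19.6 and 27.6 CPM against 9.08 to 12.6 CPM (log2 fold change -1.07, SE 0.17, adjusted p = 1.55e-05). Among 8 metabotropic glutamate receptors, 10 sodium channel and 14 calcium channel genes, 0 passed in edgeR, in DESeq2 and at an unadjusted p under 0.05, with medians of 0.08, 0.02 and -0.01. Among 30 genes of vesicle release 0 passed in edgeR and 1 in DESeq2, with 4 at an unadjusted p under 0.05 and a median of -0.01. Genes of catecholamine synthesis and transport (10 tested), adrenergic receptors (6) and the renin-angiotensin system (12) had 0 that passed in edgeR and in DESeq2, with 1, 1 and 3 at an unadjusted p under 0.05 and medians of -0.01, 0.43 and 0.00.

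Beside Tacr3, the following 5 members of these and other lists passed with the replicate block and not without it. They were named after their values were seen and are not the full set. Among the 32 genes of GABA and glycine transmission, 1 gene other than Abat passed with the block, lower in SHRs. Syt4, a synaptotagmin of vesicle release, had a log2 fold change of -0.59 (adjusted p = 0.00168 with the block, 0.205 without it and up to 0.531 over the alternatives). Adcyap1, the gene of the neuropeptide PACAP, had -0.71 (adjusted p = 0.039 with the block, 0.629 without it and up to 0.903 over the alternatives), and Cacng3, an AMPA receptor partner, had -0.72 (adjusted p = 0.01 with the block, 0.0612 without it and up to 0.649 over the alternatives). Kcne5, a potassium channel subunit, had 1.51 (adjusted p = 0.039 with the block, 0.0965 without it and up to 0.3 over the alternatives) and Hoxb6 had 1.03 (adjusted p = 0.0469 with the block, 0.495 without it and up to 0.925 over the alternatives).

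In oxidative metabolism, Cybb, Gstt3 and Ephx2 rose among 38 tested genes of nitric oxide and oxidative stress, with a median of 0.03. Cybb, the catalytic subunit of the phagocyte NADPH oxidase, had 1.10, 1.54 and 0.95 CPM in WKY rats and 2.85 to 4.99 CPM in SHRs (log2 fold change 1.60, SE 0.35, adjusted p = 0.00341). With the block its adjusted p was 0.0731 (0.00116 to 0.0731 over the alternatives). Among 9 hemoglobin and red cell genes only Hba-a3 passed. It had 3.20, 2.94 and 5.81 CPM in WKY rats and 0 counts in all 6 SHRs, which is at least 82.0-fold lower with 3 counts over the summed SHR libraries as the floor. The summed level of blood cell markers was 981, 942 and 1464 CPM in WKY rats and 347 to 1427 CPM in SHRs, and its part in the hemoglobin values was not tested. Of 12 heat shock genes Hsp90aa1 alone passed and fell, with 2255, 1804 and 2062 CPM against 1074 to 1465 CPM (log2 fold change -0.68, SE 0.15, adjusted p = 0.00540). The summed level of the list was 8568 to 10204 CPM in WKY rats and 7534 to 8297 CPM in SHRs, without overlap. Hsp90aa1 carried this separation, since without it the summed ranges overlap.

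Glial and vascular genes gave a mixed picture. Among 16 astrocyte markers Fgfr3 rose, a fibroblast growth factor receptor, with 39.4, 55.0 and 36.5 CPM against 69.0 to 104 CPM (log2 fold change 1.11, SE 0.26, adjusted p = 0.00688), while S100b, a calcium-binding protein of astrocytes, fell by 0.74, with 2809, 2818 and 3125 CPM against 1634 to 1899 CPM (SE 0.10, adjusted p = 1.49e-06). Tagln, a smooth muscle actin-binding protein, rose among 13 markers of pericytes and smooth muscle (log2 fold change 1.16, SE 0.23, adjusted p = 7.85e-04). Vwf fell among 16 endothelial markers and Mobp, a myelin protein, among 20 oligodendrocyte markers, by 0.84 and 0.82. With the block Fgfr3 had an adjusted p of 0.104, Vwf of 0.207 and Mobp of 0.0772, where the alternatives ran from 4.69e-04 to 0.104, 0.00127 to 0.244 and 0.00185 to 0.145. Lists of collagens (25 tested), cytosolic ribosome (83) and cytokines (25) each held 1 gene that rose, Col9a2, Rpl30 and F11r. Their medians were 0.50, -0.17 and 0.11. Car8 and Slc1a6 rose among 7 markers of cerebellum, by log2 fold changes of 0.65 and 1.11, and neither passed with the block, at adjusted p of 0.147 and 0.372, where the alternatives ran from 0.00909 to 0.665 and 0.0346 to 0.372.

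Most of the differences at 24 wk were also present at the other ages, in other rats. Of the 136 called genes, 131 had the same sign at all 5 ages, and 79 were called the same way at all 5, 36 higher and 43 lower. The share of all genes tested with the same sign at all 5 ages is not given here, so the 131 have no background beside them. Those called the same way at 16 wk numbered 96, which is 70.6% of the calls of 24 wk and 86.5% of the 111 calls of 16 wk. At 8 wk, the youngest age, 99 of them were already called the same way, which is 72.8% of the calls of 24 wk and 58.9% of the 168 calls of 8 wk. Spock2 had a log2 fold change between 4.14 and 4.64 at the earlier ages and Ephx2 between 3.66 and 4.21.

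The genes called at 24 wk and at no other age in the NTS numbered 21. Of these, 16 were also not called at 24 wk in the CVLM or RVLM, 15 higher and 1 lower. Elk1, an ETS factor downstream of MAP kinase, had 5.61, 11.5 and 6.86 CPM in WKY rats and 15.6 to 21.5 CPM (median 18.1) in SHRs (log2 fold change 1.21, SE 0.22, adjusted p = 2.51e-04), against log2 fold changes of 0.18 to 0.55 at the earlier ages. Ring1, a Polycomb ubiquitin ligase, Tgif2, a homeodomain corepressor, Med9, a Mediator subunit, and Tcf19 had log2 fold changes of 1.12, 1.19, 1.11 and 1.35. Other members were the immune genes Cybb, Cfp, Cyth4 and Il17rc, the astrocyte marker Fgfr3, the gap junction gene Gjc1, and Aldh1a1, Tp53inp1 and Cstf2t. Urb2 alone fell, by 1.34.

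That these genes passed at 24 wk and not at another age does not show that their strain difference changed with age. In the direct test of the strain difference at 24 wk against its mean at the other 4 ages, 0 of 13793 genes (0%) passed in edgeR at an adjusted p under 0.05, against 1125 at an unadjusted p under 0.05, and DESeq2 passed 2. All of the 16 had an adjusted p of at least 0.589 in this test. Of the 16, 12 had the same sign at all 5 ages, again without the share over all genes beside it. With the replicate block 6 of the 16 were called, and without WKY replicate 2, 9 of the 16 were. Not every gene that lost its call is marked here. The adjusted p with the block, and in brackets its range over the alternatives, was for Gjc1 0.0617 (7.33e-04 to 0.12), Ring1 0.0601 (2.14e-04 to 0.0777), Tgif2 0.0637 (0.00258 to 0.153), Tp53inp1 0.216 (0.00216 to 0.216) and Urb2 0.141 (0.00247 to 0.215). Without WKY replicate 2 the direct test passed 351 genes, 336 of them with a strain difference that was higher at 24 wk than at the other ages. That number differs by the presence of 1 of the 3 controls.

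**Figure D4:**
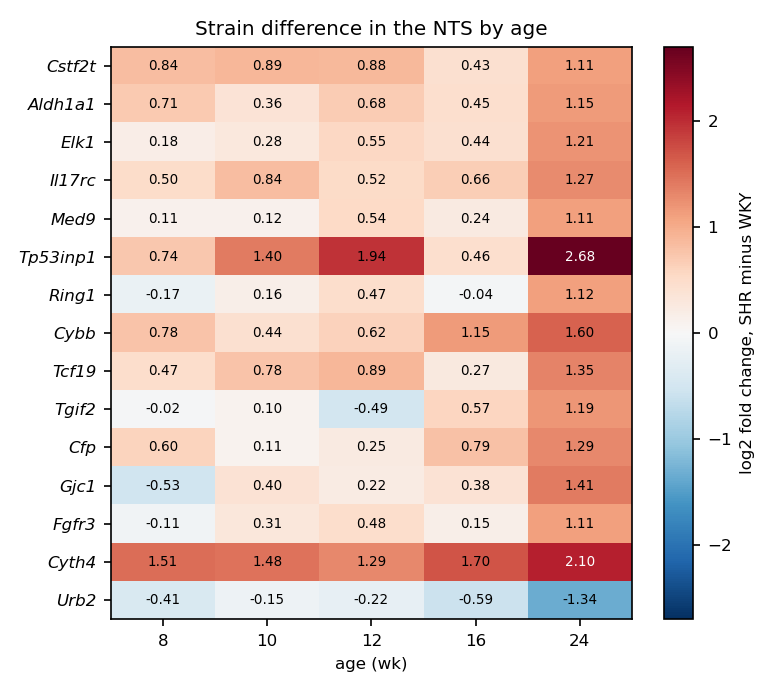
Fitted log2 fold changes, SHR minus WKY, in the NTS at each of the 5 ages (columns, in wk) for the 15 genes with the lowest adjusted p among the 16 called at 24 wk in the NTS, at no other NTS age and in no other region at 24 wk. Red is higher in SHRs and blue lower, and the column of 24 wk, by which the genes were chosen, holds the largest size in each, with values of the same sign at the earlier ages in many of them.

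The outcome of many tests changed when WKY replicate 2 was left out. Without it, 646 genes passed at an adjusted p under 0.05 that did not pass with it, 576 of them higher in SHRs, and in 506 of the 646 (78.3%) its level lay within the range of the SHRs. Genes that pass only without a rat are prone to have it there, and over all genes tested the share was 68% for WKY replicate 2, 58.9% for replicate 1 and 66.4% for replicate 3. Among the genes of the lists, 21 passed only without it, 18 of them higher, and in 15 its level lay within the range of the SHRs. Jun, an immediate early transcription factor, had 7.61 and 9.50 CPM in WKY replicates 1 and 3 but 55.3 CPM in WKY replicate 2, and 25.7 to 57.8 CPM in SHRs (adjusted p = 0.524 with and 0.00176 without this rat). Hapln2, a matrix protein of nodes of Ranvier made by oligodendrocytes, had 3.70, 85.2 and 6.23 CPM in WKY replicates 1, 2 and 3 and 29.9 to 94.5 CPM in SHRs (adjusted p = 0.474 and 0.00208). Sox9, a factor of astrocytes, Hoxd3, a factor of hindbrain identity, and Grin1 and Grik4, subunits of glutamate receptors, also had the level of WKY replicate 2 beside those of the SHRs and above those of the other WKY rats. These genes were chosen after their values were seen. The summed level of immediate early genes was 83.6 and 79.7 CPM in WKY replicates 1 and 3, 171 CPM in replicate 2 and 117 to 196 CPM in SHRs.

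Compared with the other regions of the same rats at 24 wk, most called genes of the NTS behaved alike. Of the 136, 93 were called the same way in the CVLM, which is 68.4% of the NTS calls and 64.1% of the 145 CVLM calls. In the RVLM 91 were called the same way, which is 66.9% of the NTS calls and 70% of the 130 RVLM calls, and 83 were called the same way in all 3 regions. These calls come from a fit of all ages in each region, in which 2 CVLM libraries taken as 8 wk by title carry an age of 10 wk in another label, while no 24 wk library has such a conflict. The difference between regions was tested directly in the 24 wk libraries with the animal as a block. Against the CVLM, 0 of 13274 genes (0%) passed in edgeR at an adjusted p under 0.05, with 1006 at an unadjusted p under 0.05, and limma passed 1. Against the RVLM, 2 of 13228 genes passed (0.0151%), Aldh1a1 and Cfap206.

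Aldh1a1, a retinaldehyde dehydrogenase, was higher in SHRs in the NTS but not in the RVLM. In the NTS it had 64.1, 34.6 and 47.3 CPM in WKY rats and 97.1 to 140 CPM (median 104) in SHRs (log2 fold change 1.15, SE 0.20, adjusted p = 1.12e-04). In the RVLM, normalized on its own, it had 301 to 336 CPM in WKY rats and 227 to 320 CPM in SHRs (log2 fold change -0.20). The strain difference was larger in the NTS by 1.41 on the log2 scale (SE 0.20, adjusted p = 0.00694). This call was lost without WKY replicate 2 (difference 1.20, adjusted p = 0.107) and without WKY replicate 3 (1.34, adjusted p = 0.125), which is the highest over the alternatives, while the lowest was 1.92e-06. Against the CVLM, the difference of 0.94 did not pass in edgeR (adjusted p = 0.238, and 0.0299 with all ages in the fit).

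Cfap206, a protein of the radial spokes of motile cilia, was lower in SHRs in all regions, and on the log2 scale less so in the NTS than in the RVLM. In the NTS it had 26.5, 43.1 and 43.6 CPM in WKY rats and 3.23 to 8.04 CPM (median 5.77) in SHRs (log2 fold change -2.71, SE 0.28, adjusted p = 2.92e-09). In the RVLM it had 9.35 to 13.7 CPM in WKY rats and 0 to 0.392 CPM in SHRs (log2 fold change -5.87). These SHR levels lie close to 0, so the size of that fold change and of the difference between regions is uncertain. The difference between the regions was 3.27 on the log2 scale (SE 0.47, adjusted p = 0.00694) and missed the threshold without WKY replicate 2 (3.17, adjusted p = 0.0864), without SHR replicate 6 (3.40, adjusted p = 0.050) and without the animal block (3.18, adjusted p = 0.0628). Against the CVLM, where the log2 fold change was -4.73, the difference of 2.08 did not pass (adjusted p = 0.238). Of 37 tested axoneme genes 0 passed in edgeR and in DESeq2 in the NTS, with 1 at an unadjusted p under 0.05 and a median of 0.13.

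The cholinergic genes had opposite fitted signs in the NTS and CVLM. For Chat the log2 fold change was -0.86 in the NTS, against 0.74 (CVLM) and 0.00 (RVLM), and the difference between the NTS and CVLM was -1.57 (SE 0.30, adjusted p = 0.172). For Slc18a3 the values were -0.87, 0.87 and -0.05, with a difference of -1.65 (SE 0.33, adjusted p = 0.238). For Slc5a7 the values were -0.66, 0.63 and -0.07, with a difference of -1.35 (SE 0.30, adjusted p = 0.296). None of these passed in the fit used here. Over the alternatives, the difference for Chat ran from -1.79 to -1.45 with an adjusted p from 0.0188 to 0.964.

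**Figure D5:**
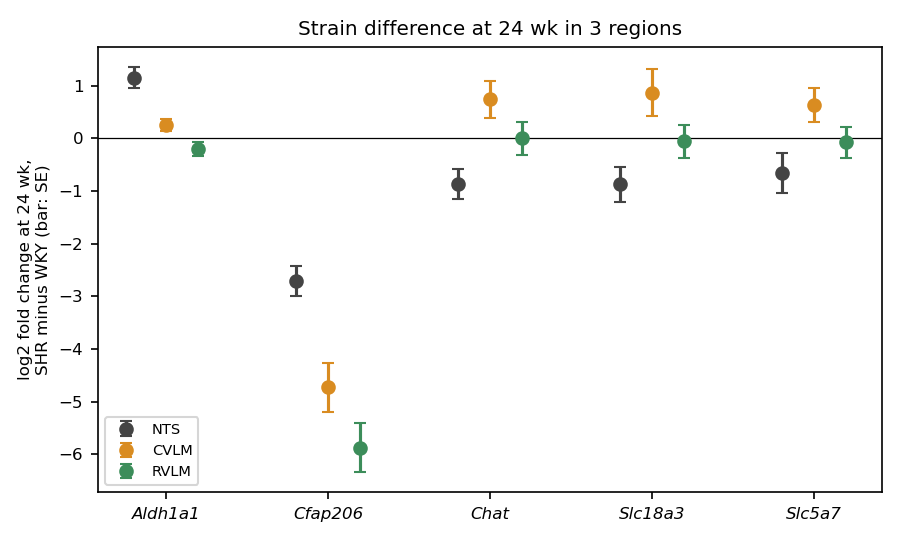
Fitted log2 fold changes at 24 wk, SHR minus WKY, for 5 genes in the NTS (grey), CVLM (orange) and RVLM (green), with bars of 1 SE. Aldh1a1 lies above 0 in the NTS and near 0 in the RVLM, Cfap206 lies below 0 everywhere and lowest in the RVLM, and Chat, Slc18a3 and Slc5a7 lie below 0 in the NTS and above 0 in the CVLM.

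Some called genes lie next to each other. Of the 136, 109 were matched to RefSeq's gene table of the GRCr8 assembly, among 12374 tested genes that were matched. Of the 109, 9 had another called gene as the next tested gene, in 4 runs, of which 3 are described. How many would do so among as many genes drawn at random was not tested. Nr1i3, the nuclear receptor CAR, and Tomm40l both rose, as did Elk1 and Cfp. The run of Ring1, RT1-A2 and RT1-A1 held both directions. With the block Nr1i3 had an adjusted p of 0.156, the highest over its alternatives, whose lowest was 7.59e-05. Reads of overlapping neighbours or of related copies such as RT1-A1 and RT1-A2 cannot be assigned with certainty from the counts.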

How the data were processed

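Brainstems were sectioned, regions were punched out, and total RNA was sequenced as paired ends. In the study's methods, alignment was by STAR to rn6 and quantification by RSEM. The deposited values are expected counts per gene, used here as the authors deposited them and rounded to whole numbers. The methods also name a batch adjustment with ComBat_seq, but the batches are not named in the sources used here. Whether the counting used strand is not given in the sources used here.

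Genes with a maximum rlog value of at least 3.5 were kept, 13793 in all. All 46 NTS libraries entered 1 fit of edgeR (version 4.0.16, R 4.3.3), with TMM normalization, a quasi-likelihood test and Benjamini-Hochberg adjustment, so that all ages share 1 estimate of the spread. A call needed an adjusted p no higher than 0.01 together with a log2 size of 1 or more. Regions were compared in the 27 libraries of the 9 rats with the animal as a block. DESeq2 (1.42.0) and limma (3.58.1) were alternatives, as were other normalizations and filters, the 24 wk libraries alone, a replicate block and leaving out each rat. The tests were checked on simulated counts.

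The deviations from the group means of same-numbered rats correlated at 0.276, 0.426 and 0.283, and each WKY rat correlated best with the SHR of its own number. The next best SHR was close, at 0.267 for WKY replicate 1, 0.356 for replicate 2 and 0.231 for replicate 3. The numbers, which come from the labels, were taken as pairing 3 rats of each strain. This pairing was inferred from the libraries it was then used to adjust. At the youngest age, the replicate numbers of the WKY rats differ from the rat numbers in the library names. No 2 libraries agreed within sampling noise.

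Genes named are the 12 symbols with the highest and the 12 with the lowest fold change among called genes without overlap and with at least 50 normalized counts on average, 3 placeholders in each direction, the list members that passed, the genes called at 24 wk only, those that differed between regions, and genes of the study's interest. Results for a few items are not reported here. The members and gene lists were chosen with earlier results of these data known. Intervals for counting error were not used, since each value has replicates. Promoter windows, motif shares and gene order came from RefSeq tables of GRCr8, another assembly than the one used for counting.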

Additional observations from a re-analysis of the deposited data

Results flagged for a closer look

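In 14 of 92 named genes, the level of 1 SHR lay apart from the other 5 by a gap past Dixon's critical value for 6 samples, where chance alone gives about 1 in 20 groups. SHR replicate 1 was apart for Pbld1 (36.958 CPM), C1r (19.554 CPM), Aldh1a1 (140.2 CPM) and Vwf (16.817 CPM). SHR replicate 6, the deepest library, was apart for Tmem94 (30.03 CPM), Ddx58 (5.4473 CPM), AABR07052523.1 (8.4503 CPM) and Calcrl (72.211 CPM). SHR replicate 4 was apart for Hcrtr1 (14.282 CPM), RT1-A1 (132.74 CPM) and Ache (414.05 CPM). SHR replicate 5 was apart for RT1-N3 (3.7673 CPM) and Tgif2 (5.6001 CPM), and SHR replicate 3 for Fgfr3 (69.009 CPM).

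The strain difference itself differed between the NTS and RVLM for Cfap206, by 3.27 on the log2 scale, and for Aldh1a1, by 1.41. Both calls were lost without WKY replicate 2.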

How the results depend on the processing

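Of 1564 values of 92 named genes under the alternatives, 1452 kept their direction and side of the threshold, 98 no longer passed, 14 newly passed and 0 turned in direction. The 136 calls (71 higher, 65 lower) became 86 (46 and 40) with the 24 wk libraries alone, and the cause was not tested. At a log2 size of 2 they became 51 (29 and 22), which follows from the stricter limit. Genes at an adjusted p under 0.05 numbered 339, and 197 with the 24 wk libraries alone. With the replicate block, which compares only 3 rats of each strain, 98 genes were called, 53 higher and 45 lower. At an adjusted p under 0.05, 248 passed. The block kept 91 of the 136 calls. Among the 92 named genes it changed the side of the adjusted p threshold of 0.05 for 26 and for none of the other named genes, and the cause was not tested.

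Leaving out 1 rat gave 99 to 259 calls, 47 to 199 higher, 52 to 63 lower and 204 to 950 genes at an adjusted p under 0.05, with the highest values without WKY replicate 2 (259, 199 and 950) and 47 and 204 without WKY replicate 1. List members that passed, 37 in all, ran from 22 (without WKY replicate 1) to 55. Each of 84 calls was kept without each rat in turn. The test against the other ages gave 0 to 351 genes and 2 in DESeq2. Against the CVLM 0 to 1 passed without a rat, 1 in limma and 6 with all ages in the fit. Against the RVLM 0 to 2 passed without a rat, 1 without the animal block, 4 in limma and 4 with all ages. The causes of these changes were not tested. With 3 WKY rats, of which replicates 1 and 3 lay apart from replicate 2, differences of moderate size were not detectable with certainty.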

Other observations

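Genes outside the rule for named genes also separated the strains, and the following were chosen after their values were seen. Insr, the insulin receptor, which acts through Pik3r1, had 19.3, 24.5 and 15 CPM in WKY rats and 4.75 to 10.3 CPM (median 7.97) in SHRs (log2 fold change -1.35, SE 0.20, adjusted p = 8.54e-06). Retsat, which reduces retinol, had 211, 207 and 205 CPM in WKY rats and 77.4 to 111 CPM (median 88.8) in SHRs (log2 fold change -1.20, SE 0.08, adjusted p = 3.12e-14). Chi3l1, a secreted chitinase-like protein of astrocytes and macrophages, had 26.1, 26.8 and 26.7 CPM against 75.7 to 107 CPM (median 95.5) in SHRs (log2 fold change 1.83, SE 0.12, adjusted p = 4.27e-15). F3, the tissue factor that starts coagulation, had 28.4, 23.7 and 29.6 CPM against 52.4 to 85.6 CPM (log2 fold change 1.32, SE 0.17, adjusted p = 2.54e-07). The ranges of the strains did not overlap for any of the 4.

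Of 18 genes proposed for traits of the SHR, Ephx2 rose and Hcrtr1 and Cacng5 fell, and the median log2 fold change was 0.05. That list was drawn up with knowledge of the study and is not independent evidence. Immediate early genes (14 tested), circadian clock genes (17), glucocorticoid response genes (15) and Hox genes (15) had 0 that passed in edgeR, with 4, 3, 1 and 1 at an unadjusted p under 0.05, and DESeq2 passed 1 clock gene and 0 of the others. Their medians were 0.37, 0.13, -0.15 and 0.27. Of 34 genes of respiratory complex I, 0 passed in edgeR, in DESeq2 and at an unadjusted p under 0.05, with a median of -0.05. Markers of the area postrema (7 tested), serotonergic neurons (4), choroid plexus (14), ependyma (10), leptomeninges (14) and blood cells (4) had 0 that passed in edgeR and in DESeq2, with 0, 1, 0, 1, 2 and 0 at an unadjusted p under 0.05.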
